A study of Mus musculus with 16 samples.

Results

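The regions described here are stretches of the genome of Xpo4 knockout (KO) cells that were called as peaks in DNA:RNA hybrid immunoprecipitation sequencing (DRIP-seq) after RNase R treatment and in no list without it. The peaks of both KO RNase R+ lists were merged into 9896 regions on chr1 to chr19 and chrX, and a region was kept where it overlapped no peak of the 2 KO RNase R- lists and no peak of the 4 wild-type (WT) lists. This left 3230 regions, 32.6% of the 9896 (95% Wilson interval 31.7 to 33.6%). They were chosen by the calls themselves, so their number and the strength of their peaks are given as a description. A peak of both KO RNase R+ replicates lay in 251 of them.

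The cells were NIH/3T3, an established line of fibroblasts from mouse embryos, either WT or as a KO line in which CRISPR-Cas9 had edited both copies of Xpo4 in the same way. Extracted DNA was digested by AluI, DdeI, MboI and MseI, which are 4 restriction enzymes. It then received RNase R (RNase R+) or the reaction buffer without enzyme (RNase R-), and hybrids were pulled down with the antibody S9.6. Of 16 samples, 8 are inputs and 8 immunoprecipitates, with 2 replicates for each of KO RNase R+, KO RNase R-, WT RNase R+ and WT RNase R-. The inputs were not analysed here. Nothing in the labels says that replicates came from separate cultures, so the spread between them may be technical.

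An R-loop is a stretch where RNA is paired with a strand of DNA while the other DNA strand is left unpaired. RNase R is an exonuclease that digests linear RNA from its end and spares circular RNA, which has no end, and the study took the calls left after RNase R as R-loops of circular RNA (ciR-loops). Exportin 4, the product of Xpo4, is a nuclear export receptor. Short tandem repeats, also called microsatellites, are units of a few bases repeated head to tail. They are common in mammalian genomes, and those made of purines (A and G) on a strand are known to favour R-loops when transcribed.

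The sequences of 4 regions that stood highest in both lists are shown first, because short repeats make up much of some of them. They are ordered by the lower of their fold enrichments in the KO RNase R+ lists and give up to 200 bases around the summit of the higher peak, on the plus strand of GRCm38. Capitals mark perfect tandem repeats of at least 20 bp with a unit of up to 6 bases.
Region 1 (chr1:3765265-3765464): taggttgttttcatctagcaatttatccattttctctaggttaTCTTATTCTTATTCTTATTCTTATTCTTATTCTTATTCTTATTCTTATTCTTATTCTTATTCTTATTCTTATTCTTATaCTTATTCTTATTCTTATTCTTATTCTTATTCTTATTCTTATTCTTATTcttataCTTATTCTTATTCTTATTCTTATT
Region 2 (chr11:79791154-79791276): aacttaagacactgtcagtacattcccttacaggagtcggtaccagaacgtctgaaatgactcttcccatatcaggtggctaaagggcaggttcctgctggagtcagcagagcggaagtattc
Region 3 (chr4:115108165-115108364): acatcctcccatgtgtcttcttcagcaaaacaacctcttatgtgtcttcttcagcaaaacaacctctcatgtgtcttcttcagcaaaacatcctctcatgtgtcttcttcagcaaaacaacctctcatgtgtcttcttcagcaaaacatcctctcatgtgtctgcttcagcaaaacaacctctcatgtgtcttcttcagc
Region 4 (chr12:94878371-94878570): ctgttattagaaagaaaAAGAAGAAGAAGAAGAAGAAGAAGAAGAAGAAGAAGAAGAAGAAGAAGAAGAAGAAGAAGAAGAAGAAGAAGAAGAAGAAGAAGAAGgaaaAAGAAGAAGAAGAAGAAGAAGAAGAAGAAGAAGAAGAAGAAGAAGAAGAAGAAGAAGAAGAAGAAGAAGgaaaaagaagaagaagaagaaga

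Regions 1 and 4 lay in long perfect repeats, of a unit of 6 bases over 78 bp and of (AAG)n over 87 bp. Region 3 held imperfect copies of a unit longer than 6 bases, and region 2 held no repeat in the window of its higher summit. Region 2 counts among the (AC)n regions through the summit window of its other peak.

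Region 1 had a fold enrichment of 12.9 in KO RNase R+ replicate 1 and 13.2 in replicate 2, with summit heights of 35 and 24 fragments. Fold enrichment is the caller's ratio of fragments at the summit over its expected level, with 1 added to both. Region 1 lay outside annotated genes, 1.92 kb from the nearest untreated KO peak. Region 2 had folds of 11.96 and 14.3 and lay in an intron of the noncoding gene 9130204K15Rik. Region 3 had folds of 10.0 and 19.2 and lay in an exon of Cyp4x1, a cytochrome P450 gene. That these 3 regions were high in both replicates follows from their order by the lower fold. Of the 3, region 3 differed most between the replicates.

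Regions 4, 5 and 6 lay outside annotated genes, with folds of 9.88 and 10.6, 9.88 and 11.6, and 10.4 and 9.52. Of the next 6 regions by the same order, 4 lay in introns, of 4732471J01Rik, Gm17215, Fam71e2 and Mxi1, the last a gene of a MAX-binding repressor that opposes MYC. Another lay outside genes and the last in a promoter, 0.134 kb from the start of the small RNA gene Gm23712 and inside Corin, the gene of a protease that processes the precursor of atrial natriuretic peptide. The region in Gm17215 showed how far replicates could differ, with a fold of 30.7 and 58 fragments in replicate 1 and a fold of 9.38 and 17 fragments in replicate 2.

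Regions held by 1 list could be as high. The strongest was on chr18 (68692074 to 68692310) outside genes, with a fold of 21.3 and 40 fragments in replicate 1 and no call in replicate 2. The next had folds of 16.9 (chrX, replicate 2), 14.6 (chr3, replicate 1), 14.0 and 13.8. Only the last 2 of these 5 lay at genes, in the promoters of Gar1, which encodes a protein of small nucleolar ribonucleoproteins, and of Gm17654.

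The regions as a whole were low. Their width ran from 233 to 1464 bp with a median of 273 bp, and together they covered 997 kb of the 3340 kb of all KO RNase R+ regions. The 3484 peaks in them made up 27.9% of the list of replicate 1 and 29.4% of that of replicate 2. Another 6 peaks overlapped no untreated or WT peak but lay in merged regions that did. The 3490 peaks (1752 in replicate 1 and 1738 in replicate 2) are called RNase R+ only peaks from here on, and all shares by library are shares of them. Their median fold was 6.24 in replicate 1 and 6.35 in replicate 2, against 7.25 and 7.41 for peaks of the same lists that were also called without RNase R (shared peaks). Median summit heights were 12 fragments in both replicates for RNase R+ only peaks and 15 for shared peaks. Peaks called only in KO RNase R- had a median height of 13 fragments in both libraries and median folds of 6.51 and 6.68. Their median widths were 241 and 249 bp, against 272 and 273 bp for RNase R+ only peaks and 287 and 279 bp for shared peaks. At least 20 fragments were reached by 6.30% of RNase R+ only peaks. Each of these values follows from the contrast the rule used and is a description.

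The limit of detection did not lie far below these heights. The lowest height called where the expected level was near background was 8 fragments in both KO RNase R+ lists and 7 in both KO RNase R- lists. The weakest −log10 p called was 5.66 and 5.64 in the RNase R+ lists and 5.18 and 5.10 in the RNase R- lists, so the untreated lists admitted weaker peaks. Total read depth is not in the lists. The study's reporting summary gives far fewer uniquely mapped reads for both WT RNase R- immunoprecipitates than for the WT RNase R+ and KO ones. The caller's background level was 0.924 and 0.890 fragments per position in KO RNase R+, 0.843 and 0.896 in KO RNase R-, and 0.425 to 0.558 in the 4 WT libraries.

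Most of the regions were seen in 1 replicate. Both lists held 7.77% of them (251, interval 6.90 to 8.75%), while 22.8% of all 9896 KO RNase R+ regions, 30.2% of the shared regions and 26.9% of the regions called only in KO RNase R- were held by both lists of their group. Replicate 1 had a peak in 1748 of the regions and replicate 2 in 1733. In the 251, the median fold was 6.76 in replicate 1 and 6.98 in replicate 2, and the higher of a region's folds was 1.20 times the lower in the median. The folds lay within 1.5 times of each other in 208 of the 251 (82.9%). Folds of RNase R+ only peaks spanned little, with quartiles of 5.48 and 7.28 in replicate 1 and 5.39 and 7.41 in replicate 2. Closeness of folds therefore does not by itself show agreement of the replicates, and unrelated peaks were not compared.

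**Figure D1:**
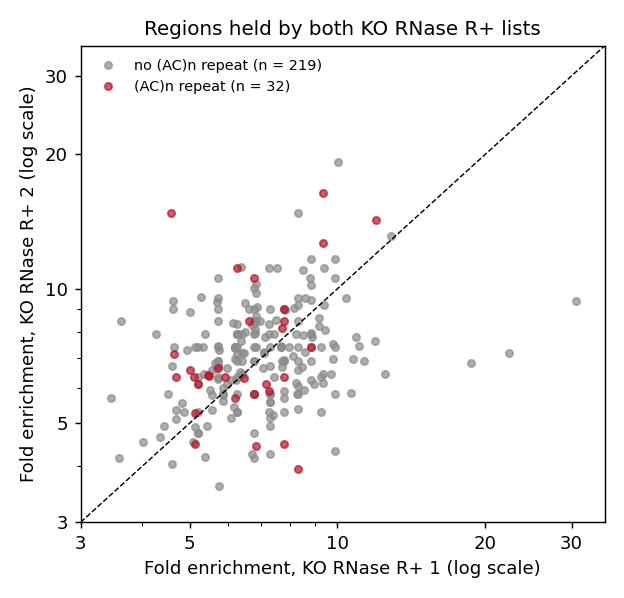
Fold enrichment of the 251 regions held by both KO RNase R+ lists, replicate 1 on the x axis and replicate 2 on the y axis, both on log scales, with the dashed line at equal values. The 32 red points are regions with an (AC)n repeat, which lie among the 219 others, and 208 of the 251 have folds within 1.5 times of each other. Most folds of RNase R+ only peaks span a narrow range, so this closeness does not by itself show agreement.

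Distances to untreated calls are given as a description, since the rule removed regions that overlapped one. No such distance was computed for genome windows. The median distance to the nearest KO RNase R- peak was 18.4 kb, with quartiles of 7.23 and 39.5 kb, and the farthest was 329 kb away. An untreated KO peak lay within 1000 bp of 160 regions (4.95%). At the threshold of the rule, 1 region touched an untreated peak without overlap, and the smallest overlap that removed a region was 2 bp. Of the 6387 regions removed by an untreated KO peak, 20 had an overlap under 50 bp. A further 279 were removed by a WT peak alone. Of the regions, 6.19% lay within 10000 bp of another one, and no value for randomly placed regions was computed.

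The regions and the other KO peaks differed in the repeats at their summits. Perfect (AC)n repeats of at least 20 bp, which read (GT)n on the other strand, lay in the 300 bp summit window of 14.0% of RNase R+ only peaks in replicate 1 (interval 12.5 to 15.7%) and 13.3% in replicate 2 (11.8 to 15.0%). The share was 3.66% and 3.75% in the peaks called only in KO RNase R-, 3.52% and 2.71% in shared peaks, and 2.94% in 255922 windows spaced every 10000 bp along the genome. Both RNase R+ only values lay above all of these. The means were 13.7 ± 0.490% and 3.70 ± 0.0623% (SD, n = 2 libraries each), a difference of 9.99 percentage points or 3.70 times. Its two-sided exact permutation p was 0.33, the smallest that 2 libraries against 2 allow, and 0.37 after Benjamini-Hochberg adjustment over 22 measures. None of the 22 could pass a threshold of 0.05 in this design. Within libraries, RNase R+ only peaks exceeded shared peaks by 10.5 and 10.6 points.

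Repeats of the unit AGAT were likewise most frequent in RNase R+ only peaks, at a lower level. They lay in 4.97% and 4.26% of RNase R+ only windows, 0.836% and 0.569% of RNase R- only windows, 0.898% and 0.777% of shared windows and 0.296% of genome windows. Repeats of the unit ACAT lay in 0.742% and 1.73%, against at most 0.0981% in any library of the other sets. The exact permutation p was 0.33 for both (adjusted 0.37). Only AC and AG had been set as measures before the repeat shares were seen, and the other units were chosen after that.

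Sequences with these repeats are shown from regions held by both lists, to let the repeats be seen in their surroundings. They were taken in the order of the lower fold from regions whose repeat lies within the stretch shown around the higher summit, which passed over region 2 above. Capitals again mark perfect repeats of at least 20 bp, and all are on the plus strand of GRCm38.
(AC)n region 1 (chr7:4755977-4756176): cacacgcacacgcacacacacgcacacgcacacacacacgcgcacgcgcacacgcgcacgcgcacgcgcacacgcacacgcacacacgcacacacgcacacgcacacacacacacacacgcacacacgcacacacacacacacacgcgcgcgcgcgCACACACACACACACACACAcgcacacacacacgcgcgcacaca
(AC)n region 2 (chr19:53348669-53348824): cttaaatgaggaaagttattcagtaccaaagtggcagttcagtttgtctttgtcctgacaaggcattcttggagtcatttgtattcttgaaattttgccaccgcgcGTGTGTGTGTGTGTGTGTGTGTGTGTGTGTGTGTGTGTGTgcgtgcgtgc
(AGAT)n region 1 (chr19:57449113-57449312): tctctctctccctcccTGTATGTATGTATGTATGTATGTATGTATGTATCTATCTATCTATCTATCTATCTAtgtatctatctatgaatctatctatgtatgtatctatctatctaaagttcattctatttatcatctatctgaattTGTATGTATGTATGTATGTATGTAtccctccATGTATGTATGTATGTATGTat
(AGAT)n region 2 (chr11:17043286-17043485): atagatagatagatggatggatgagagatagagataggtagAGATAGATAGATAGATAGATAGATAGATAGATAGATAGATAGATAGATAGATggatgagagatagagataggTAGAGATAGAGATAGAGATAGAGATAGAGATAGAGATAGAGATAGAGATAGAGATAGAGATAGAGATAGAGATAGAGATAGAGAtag
(AGAT)n region 3 (chr6:106023207-106023406): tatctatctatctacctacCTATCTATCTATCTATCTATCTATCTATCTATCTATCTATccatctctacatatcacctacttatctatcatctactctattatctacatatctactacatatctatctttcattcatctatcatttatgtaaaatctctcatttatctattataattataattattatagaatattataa

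The (AC)n region 1 lay in an intron of Fam71e2, with folds of 9.36 and 12.7, and carried many AC dinucleotides broken by CG, of which only 20 bp ran without a break. The (AC)n region 2 lay in an intron of Mxi1 (folds 9.34 and 16.4) with 40 bp of (GT)n. The (AGAT)n region 1 lay outside genes (folds 8.23 and 7.94) and held 24 bp of the repeat between runs of ACAT of 20 to 32 bp. The (AGAT)n region 2 lay in an intron of Plek, the gene of pleckstrin (folds 10.7 and 6.98), with 52 bp of the repeat beside 84 bp of the related unit AGAGAT. The (AGAT)n region 3 lay in an intron of Cntn4, which encodes a contactin of neurons (folds 11.3 and 6.88), with 40 bp. Of these 5 regions, 4 were thus intronic.

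Other repeats were rarer in RNase R+ only peaks than in the untreated calls. The unit AAAG lay in 5.82% and 4.26% of RNase R+ only windows, 18.3% and 18.9% of RNase R- only windows and 14.2% and 13.4% of shared windows. The mean difference from RNase R- only was −13.6 percentage points (exact permutation p = 0.33, adjusted 0.37). The unit AAGG lay in 6.56% and 5.12% against 11.1% in both RNase R- only libraries. Runs of A alone lay in 0.171% and 0.173% of RNase R+ only windows and in 5.86% and 5.78% of RNase R- only windows, while shared windows held 0.529% and 0.251%. Low shares of runs of A were thus seen in both sets of RNase R+ peaks. The unit AAG went the other way against RNase R- only peaks, with 7.82% and 9.21% against 4.48% and 4.64%, but shared peaks held more, 13.3% and 18.7%. The unit AG did not separate the sets, at 16.6% and 9.90% in RNase R+ only and 12.4% and 11.8% in RNase R- only windows.

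Any tandem repeat lay in 50.0 ± 4.09% of RNase R+ only windows, 54.7 ± 0.296% of RNase R- only windows and 8.70% of genome windows (SD, n = 2). Repeats as such were therefore frequent in all KO peaks, and the sets differed in their units. Repeats of A and G only lay in 31.8 ± 4.56% of RNase R+ only, 39.5 ± 0.145% of RNase R- only and 47.6% of shared windows. That difference was lost without KO RNase R- replicate 2, where it was 0.167 points. Of the 3230 regions, 454 held an (AC)n repeat, 1024 a repeat of A and G only, and 114 both kinds.

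**Figure D2:**
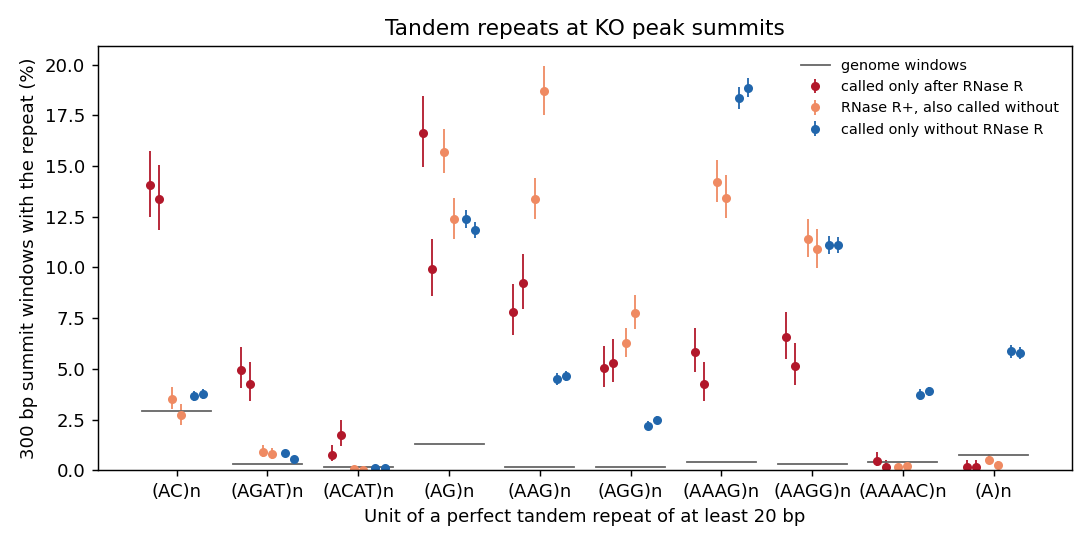
Share of 300 bp summit windows with a perfect tandem repeat of at least 20 bp, in percent, by repeat unit. Each point is 1 of the 2 KO libraries of a set with its 95% Wilson interval, and the grey lines are genome windows; (AC)n stands at 14.0% and 13.3% in the peaks called only after RNase R and at 3.75% or less in the other sets, while (AAAG)n is lowest in the peaks called only after RNase R.

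The (AC)n repeats lay close to the summits. Counted at steps of 25 bp, an (AC)n repeat was present at up to 2.85% of RNase R+ only peaks, at the step centred 62 bp from the summit, and at a mean of 0.606% from 500 bp outward. For RNase R- only peaks the highest step was 0.654% against 0.385% from 500 bp outward, and for shared peaks 0.613% against 0.376%. The longest (AC)n repeat of a window had a median length of 34 bp in RNase R+ only peaks, 34 bp in RNase R- only peaks and 36 bp in shared peaks, so its length was alike in the sets. Of 273055 such repeats on the same chromosomes, 692 (0.253%) overlapped one of the 3230 regions. More of them, 1840 (0.674%), overlapped the 36044 regions called only in KO RNase R-, and 309 (0.113%) overlapped the 6387 shared regions.

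**Figure D3:**
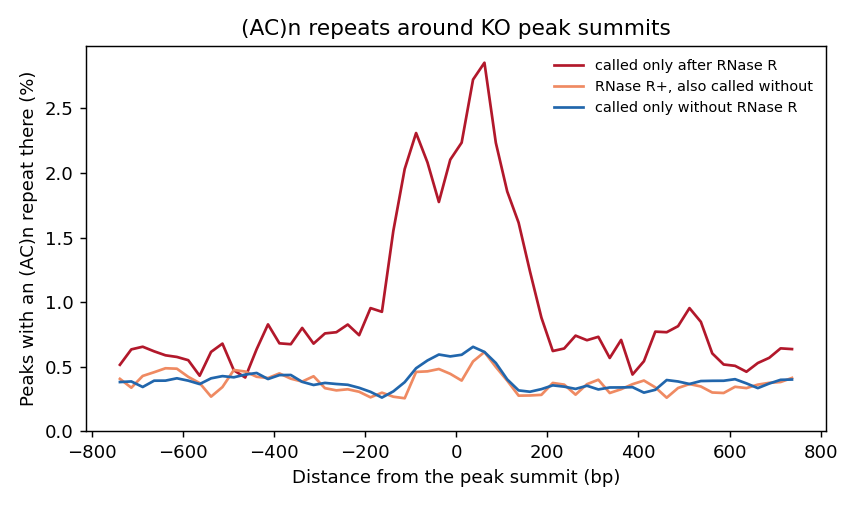
Share of KO peaks with an (AC)n repeat at each distance from the summit, in percent, at steps of 25 bp over 750 bp on either side, both libraries of a set together. The peaks called only after RNase R reach 2.85% near the summit and the other sets stay under 0.7%.

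Since RNase R+ only peaks were lower than the others, the shares were also set out by fold enrichment. In RNase R+ only peaks, the (AC)n share ran from 18.0% of 461 peaks of a fold under 5 to 13.2% of 1508 peaks of a fold of 6 to 8 and 8.62% of 116 peaks of 10 or more (interval 4.75 to 15.1%). In RNase R- only peaks the share was 5.95%, 3.22% and 1.68% in the same classes, and in shared peaks 5.43%, 3.65% and 1.34%. The RNase R+ only share was thus the highest of the sets in every fold class, while within each set (AC)n was more frequent among low peaks. The unit AAAG ran the opposite way in RNase R- only peaks, from 9.35% under a fold of 5 to 35.4% at 10 or more. In RNase R+ only peaks it was between 2.82% and 5.60% in all 5 classes.

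**Figure D4:**
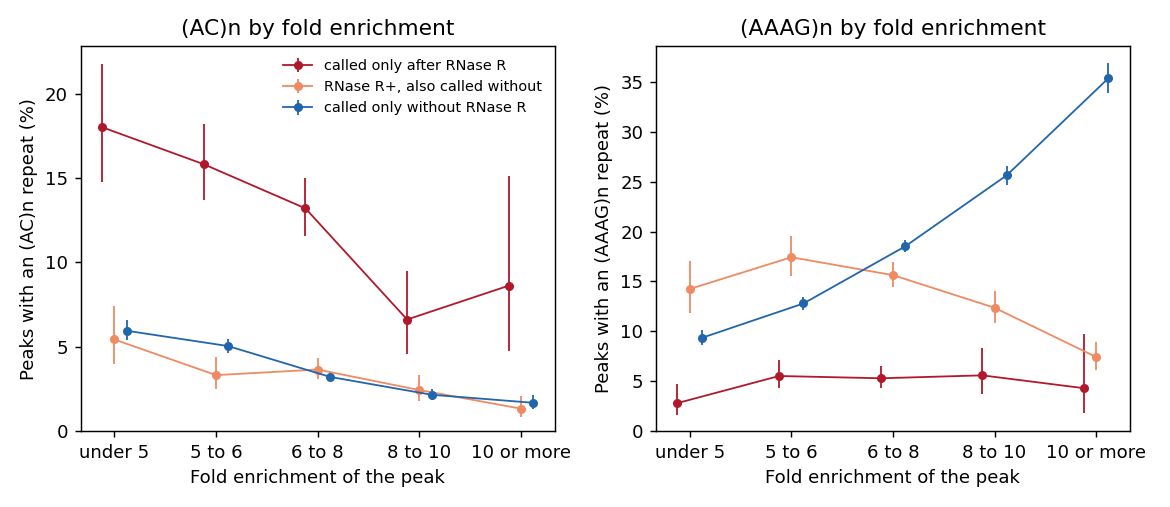
Share of KO peaks with an (AC)n repeat (left) and an (AAAG)n repeat (right), in percent, by class of fold enrichment, with 95% Wilson intervals, both libraries of a set together. The peaks called only after RNase R hold the highest (AC)n share in each class, from 18.0% under a fold of 5 to 8.62% at 10 or more, and an (AAAG)n share under 6% throughout.

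The repeats were also in the regions that both replicates called. An (AC)n repeat lay in 12.7% of the 251 regions held by both lists (interval 9.18 to 17.4%) and in 14.2% of the 2979 held by 1 list (13.0 to 15.5%), and (AGAT)n in 4.78% and 4.67%. The unit AAG was in 13.5% of both-list regions (9.86 to 18.3%) and 7.82% of the others (6.91 to 8.84%). Without any choice by overlap, over all peaks of a list, (AC)n lay in 6.49% and 5.84% of KO RNase R+ peaks, 3.40% and 3.52% of KO RNase R- peaks, 3.08% and 3.82% of WT RNase R+ peaks and 2.30% and 1.94% of WT RNase R- peaks.

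Restriction sites were fewer at RNase R+ only summits. A 300 bp window held 2.14 ± 0.302 sites at RNase R+ only summits, 2.96 ± 0.0649 at RNase R- only summits, 2.89 at shared summits and 5.48 in the genome (SD, n = 2). Windows with (AC)n in RNase R+ only peaks held 1.93 and 1.86 sites, those with a repeat of A and G only 2.07 and 1.75, those with another repeat 1.70 and 1.29, and those without a repeat 2.78 and 2.13. The part of the missing sites in the calls was not tested. GC content was 44.2 ± 0.943% against 43.1 ± 0.0342% in RNase R- only peaks and 46.7% in shared peaks. CpG dinucleotides were fewer, 0.761 ± 0.0594 per 100 bp against 0.901 ± 0.00716 and 1.13. A G-quadruplex pattern, in which runs of G can fold into a stacked structure, lay in 7.56 ± 2.96% of RNase R+ only and 11.8 ± 0.622% of RNase R- only windows. Each of these differences had an exact permutation p of 0.33 (adjusted 0.37). Single libraries carried part of them, since the GC difference of 1.08 points was 0.162 without KO RNase R+ replicate 1, and without replicate 2 the G-quadruplex difference of −4.28 points was −2.03 and the CpG difference of −0.140 was −0.0874. An expected level above 3 times background was found at 2.28% and 2.82% of RNase R+ only peaks, 2.70% and 2.86% of RNase R- only peaks and 5.36% and 6.17% of shared peaks, in lists made from reads with a unique position.

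The regions lay farther from gene starts than the other KO peaks did, at about the distance of genome windows. Summits within 1000 bp of a transcript start made up 7.42% (interval 6.28 to 8.74%) and 6.33% (5.28 to 7.57%) of RNase R+ only peaks, 9.75% and 9.77% of RNase R- only peaks, and 15.9% and 13.2% of shared peaks. The genome windows had 6.13%. The median distance to a transcript start was 15.6 and 16.2 kb for RNase R+ only peaks, 11.4 kb for both RNase R- only libraries, 8.31 and 9.92 kb for shared peaks and 16.4 kb for genome windows. Exons held 2.05% and 1.38% of RNase R+ only summits, against 3.67% and 3.59% of RNase R- only and 5.59% and 4.61% of shared summits. Introns held 43.0% and 41.8%, against 39.0% and 38.9% of RNase R- only and 39.4% of genome windows. The promoter difference from RNase R- only was −2.88 percentage points and the intron difference 3.44 points, with an exact permutation p of 0.33 for each (adjusted 0.37). The promoter difference was −1.34 points with promoters of 500 bp, and the intron difference was 1.77 points without KO RNase R- replicate 2 and 1.94 with protein-coding genes only. Within the RNase R+ only peaks, promoters held 2.60% and 1.75% of those with a repeat of A and G only, 3.66% and 7.33% of those with (AC)n, and 11.99% and 8.91% of those with no repeat.

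Annotated genes overlapped 1609 of the 3230 regions (49.8%), and protein-coding genes 1332 (41.2%). By summit, genes held 50.9% and 48.3% of RNase R+ only peaks, 50.7% and 50.5% of RNase R- only peaks, 56.2% and 51.2% of shared peaks and 47.3% of genome windows. Seen from the genes, 1491 of 53843 annotated genes (2.77%) and 1136 of 21755 protein-coding genes (5.22%) held a region. Those 1136 were long, with a median of 108 kb against 17.4 kb for all protein-coding genes. Longer genes would hold more regions at an even density too, and no value weighted by length was computed. More than 1 region lay in 216 genes and at least 3 in 47.

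The gene with the most regions was Gm20388, a protein-coding model of 4435 kb that overlaps 209 other genes, with 13. Ctnna2, which encodes the alpha-catenin of neurons, held 6 over 1098 kb, or 5.46 per Mb, against 1.23 per Mb over the genome. It also held 17 regions called only without RNase R and 1 shared region. The genes of this paragraph were chosen by their number of regions, so densities above that of the genome follow from the choice. A further 11 genes held 4 each. The 8 shortest of them were Ccdc171, the noncoding Gm41335, Vps13b (a lipid-transfer protein of the Golgi), Tenm3 (a teneurin), Ank3 (ankyrin-G), Ptprm (a receptor tyrosine phosphatase), Mdga2 and Lrrtm4 (both synaptic adhesion proteins). Ccdc171 had 11.8 regions per Mb, and its 339 kb also held 6 regions called only without RNase R and no shared region. Both lists held at least 1 of the regions in Gm20388, Gm41335, Vps13b, Ank3 and Ptprm.

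Of 6 genes that the study names as sources of mouse circular RNAs, Nfix, a transcription factor gene, and Specc1 held 1 each, both in 1 list only and with the same fold of 5.82. The one in Nfix had an (AC)n repeat. Adarb1, Hipk3, Wwc1 and Boll held none. The share of 33.3% rests on 2 regions and stands against 5.22% of all protein-coding genes. The 6 genes had a median length of 121 kb and span 0.819 Mb in all, with 2.44 regions per Mb against 1.23 over the genome. Among 26 very long or fragile-site genes, 17 held a region (65.4%), with 30 regions in all or 0.792 per Mb, below the 1.23 per Mb of the genome. Cntnap2, a neurexin-family adhesion gene, held 4, Ptprd 3, and Fhit, at a known fragile site, 2. Only 1 of the 30, in Csmd1, was held by both lists. None of 27 genes for nuclear transport receptors and export helicases (1.33 Mb in all) held a region, Xpo4 among them, and none of 19 genes for R-loop processing factors (0.883 Mb). At the density of the genome, such lengths hold few regions.

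Chromosomes differed in their density of regions. Relative to the mean of 12.3 per 10 Mb, chr15 had 1.73 times, chr17 1.67 times, chr1 1.57 times and chr19 1.43 times as many, and chr14 had 0.483 times and chrX 0.210 times. RNase R+ only peaks of the separate replicates gave 1.76 and 1.81 for chr15, 1.77 and 1.56 for chr17, 0.518 and 0.449 for chr14, and 0.149 and 0.284 for chrX. Shared regions had 1.66 for chr15, 1.86 for chr17 and 0.171 for chrX, and regions called only without RNase R had 1.34, 1.39 and 0.462. The order of the chromosomes was thus not particular to the regions called only after RNase R. Copy number of the chromosomes in the KO line was not analysed here.

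**Figure D5:**
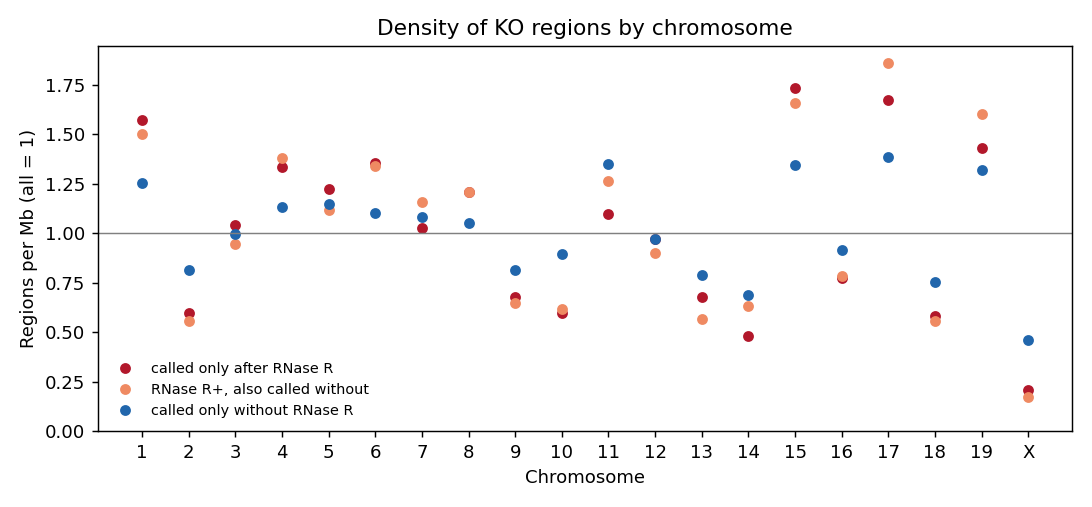
Regions per Mb on each chromosome divided by the value over chr1 to chr19 and chrX, for the regions called only after RNase R, the RNase R+ regions also called without it, and the regions called only without RNase R. Chromosome 15 stands at 1.73 and chrX at 0.210 for the regions called only after RNase R, and the other sets lie on the same side of 1 on both.

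The same rule turned to the WT cells left 173 of 436 WT RNase R+ regions (39.7%, interval 35.2 to 44.3%), of which 45 were held by both WT lists. Their (AC)n shares were 2.13% of 94 peaks (0.585 to 7.43%) and 5.38% of 130 peaks (2.63 to 10.7%), and those of peaks called only in WT RNase R- were 3.08% and 2.45%. The WT values of the treatments thus overlapped, and the interval of each WT RNase R+ library lay below both KO values of 14.0% and 13.3%. WT RNase R+ only peaks had median folds of 7.68 and 7.60, against 6.24 and 6.35 in KO. In KO RNase R+ only peaks, the (AC)n share was 13.2% at a fold of 6 to 8, 6.62% at 8 to 10 and 8.62% at 10 or more. The bearing of fold on the WT and KO values was not tested. The difference between the genotypes was not tested, and the WT lists had far fewer peaks and a lower background level. By the reporting summary, WT RNase R- immunoprecipitates also had far fewer uniquely mapped reads than WT RNase R+ ones, unlike in KO. The bearing of this depth on the share of 39.7% was not tested.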

How the data were processed

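DRIP-seq peak lists of 8 immunoprecipitates were used. According to the study's methods, the authors trimmed reads with cutadapt, aligned them to GRCm38 with Bowtie2, removed duplicates, reads with more than 3 mismatches and reads without a unique position with SAMtools 1.1 (the version also in the submitters' processing notes), and ran MACS2 on single replicates at a q of 0.001. The control library of the caller is not given in the sources used here. The deposited fold enrichment was read as summit height plus 1 over expected level plus 1, and the deposited p and q values are −log10 values. Filtering for unique positions removes reads from identical copies, so repeats are seen only where their flanks are unique. In the list of WT RNase R- replicate 1, all 3885 peak names are those of replicate 2, but the values are not, and no row was identical between replicates.

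Peaks were merged where they overlapped or touched, and an overlap of 1 bp counted as shared (the code gave the regions of bedtools 2.31.1 on simulated data). Summit heights were recovered from the deposited fold and p under a Poisson distribution, and came out whole for 93.0 to 99.9% of each list. Measures were taken over 300 bp around the summit in Python 3.11.15, with GENCODE M21 genes and the GRCm38 sequence of RefSeq. One value per library and measure was compared by two-sided exact permutation tests (RNase R+ only against RNase R- only peaks in KO), with Benjamini-Hochberg adjustment. The 95% Wilson intervals cover counting error only, since peaks of a library are not replicates. Alternatives were other call thresholds, overlap and merging rules, windows and repeat lengths, and leaving out each KO library. The replicate numbers come from the sample titles.

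The regions and gene lists were chosen with earlier results of these data known. Regions named in the text are the 12 held by both KO RNase R+ lists with the highest lower fold and the 5 of 1 list with the highest fold, and genes those overlapping them, the 10 with the most regions and the members of the gene lists. Sequences are those of the first 6 both-list regions, and examples of repeats chosen after their values were seen. Some of these sequences, and a gene of the lists, are not reported here.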

Additional observations from a re-analysis of the deposited data

Results flagged for a closer look

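On chrY and sequences not placed on a chromosome, which entered no comparison above, 13 of 107 KO RNase R+ regions overlapped no untreated or WT peak, while 0 of 10 WT RNase R+ regions met the same rule. They are listed because they lie outside the chromosomes described.

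The share of (AGAT)n repeats is listed because the values of the genotypes differed in sign. In KO it was 3.91 percentage points higher in RNase R+ only than in RNase R- only peaks, with both libraries above. In WT it was 0 of 94 peaks (which allows up to 3.19%) and 0.769% of 130 peaks (95% Wilson interval 0.136 to 4.23%) in RNase R+ only, and 2.68% and 2.77% in WT RNase R- only peaks. The WT RNase R+ limits include the WT RNase R- values, so these selected peaks show no direction in WT. Over all peaks of a list, (AGAT)n lay in 0 of 260 (up to 1.46%) and 0.294% of 340 WT RNase R+ peaks (up to 1.65%). The WT RNase R- lists had 1.81% (interval 1.43 to 2.28%) and 1.94% (1.43 to 2.62%). These values lay above both limits, but their intervals reached below them, and all these intervals cover counting error only. In KO the whole lists had 2.02% and 1.91% with RNase R and 0.839% and 0.592% without. The WT treatments also differed in read depth. The difference between the genotypes was not tested.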

How the results depend on the processing

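The number of regions was 3230 and stayed within 1.5 times of that except with RNase R+ peaks of a fold of at least 6 (1874) and without an RNase R+ library (1738 without replicate 1 and 1752 without replicate 2). Leaving out any KO library gave 1738 to 4599. Of KO RNase R+ regions, 32.6% were called only after RNase R, 29.9% with a −log10 q of at least 5 in the RNase R+ lists, 26.9% with a fold of at least 6, 30.7% with no untreated or WT peak within 1000 bp, 34.2% without peaks above 3 times background, 34.7% where an overlap had to cover at least 50% of the region, 35.5% without the WT lists, and 27.9 to 46.5% without a KO library. The both-list share of 7.77% became 8.09% (q), 7.42% (fold), 8.00% (background), 8.42% (overlap), 7.94% (merging across 500 bp), 9.23% (no WT lists) and 9.49 to 10.5% without an RNase R- library. It has no value with 1 RNase R+ library left. Both RNase R- libraries thus bear on the count, which rose to 4131 without replicate 1 and 4599 without replicate 2. Differences in measures were computed 287 times under alternatives. Those of the replicate block, 1 for each of the 22 measures, repeat the main values and could not change sign. Of the 287, 284 kept their sign. The others came from leaving out a library, which took the (AG)n difference (1.14) from −2.69 without RNase R+ replicate 1 to 4.38 without replicate 2, the gene share difference (−1.02) from −2.89 to 0.469 without the same libraries, and that of repeats of A and G only (−7.69) from −11.6 without RNase R+ replicate 1 to 0.167 without RNase R- replicate 2. The cause was not tested. The (AC)n difference ran from 6.30 points (repeats of at least 30 bp) to 15.2 (at least 12 bp), was 9.99 for peaks of a fold of 6 to 8 (these 3 settings, and untreated KO peaks held to the p limit of the RNase R+ lists with 3274 regions, were chosen after seeing the data) and 7.29 without RNase R- replicate 2. With the replicate block, the (AC)n difference of 9.99, the (AGAT)n difference of 3.91, the (AAAG)n difference of −13.6 and the promoter difference of −2.88 had an exact sign-flip p of 0.5, the smallest 2 pairs allow. Replicate differences of RNase R+ and RNase R- correlated at 0.00778 over 1447 regions called in all 4 KO libraries, so the numbers were not taken as pairs. The recovered heights limit what can be seen to peaks of 7 or 8 fragments.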
